A study of Mus musculus with 8 samples.

Results

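The major urinary protein genes Mup3, Mup4, Mup5, Mup20 and Mup21 were followed across liver development, 5 genes of the 22059 in the count files. They were taken by symbol as divergent members of the family, and the family was taken up because Mup3 and Mup21 were among the largest rises from the fetal to the adult liver. The rise from E18 is therefore given as a description with no test, and the tests below compare postnatal stages, which share their libraries with that rise. RNA-seq was made from whole liver of wild-type FVB mice (FVB/NJ in the study's methods), in 2 samples at each of 4 stages. The stages were E18 (day 18 of embryonic life), P14 and P28 (days 14 and 28 after birth) and adult, at 3 months. The study sequenced these stages to follow how the liver transcriptome matures after birth. The labels give no sex. The study's methods name males for adult livers of this age and use mice of both sexes elsewhere, without a sex for these libraries. The study describes the libraries of a stage as biological duplicates, but the labels name no animals, so p-values measure the spread between these samples.

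Major urinary proteins are small lipocalins, barrel-shaped carriers that the liver secretes into the blood and the kidney passes into the urine, where they hold and slowly release volatile pheromones. Their genes lie side by side in 1 cluster, most of them nearly identical copies, and adult males make more of the protein than females. In the liver their transcription is known to depend on pulses of growth hormone acting through STAT5, on testosterone, on thyroid hormone and on glucocorticoids. Mup20 encodes darcin, a male pheromone protein that attracts females, whereas Mup4 and Mup5 are best known from nasal, lacrimal and salivary glands.

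All 5 genes lie on the minus strand of chromosome 4 (GENCODE M21, GRCm38), inside a cluster of 22 annotated Mup genes that runs from base 59956804 to base 62150863. Mup4 opens the cluster at chr4:59956804-59960710. Mup5 at chr4:61831319-61835233, Mup20 at chr4:62050234-62054158, Mup3 at chr4:62083476-62087342 and Mup21 at chr4:62147932-62150863 follow one another at its far end. Mup21 has 6 annotated exons and the other 4 genes have 7. The files hold no coordinates and were made on another build, mm9, so these positions serve only to place the genes.

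The 200 bases that start 250 bases before the RefSeq gene start are shown for the 3 members with a promoter entry, since they show how much sequence the members share just upstream of transcription (GRCm38.p6, minus strand, 5′ to 3′). Capitals mark TGTTCT, a half-site of the glucocorticoid receptor, and AATCAAT, the reverse complement of ATTGATT, the core of the Onecut1 (HNF6) site. The Mup3 stretch is chr4:62087368-62087567, the Mup21 stretch chr4:62150892-62151091 and the Mup4 stretch chr4:59960718-59960917.
Mup3: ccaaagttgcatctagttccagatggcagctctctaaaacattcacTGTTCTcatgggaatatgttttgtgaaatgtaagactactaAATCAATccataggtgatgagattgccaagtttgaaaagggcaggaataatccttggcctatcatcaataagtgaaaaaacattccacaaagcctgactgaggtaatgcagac
Mup21: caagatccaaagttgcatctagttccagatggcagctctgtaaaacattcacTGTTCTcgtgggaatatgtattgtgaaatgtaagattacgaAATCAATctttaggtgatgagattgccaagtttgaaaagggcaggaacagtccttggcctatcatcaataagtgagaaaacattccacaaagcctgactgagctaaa
Mup4: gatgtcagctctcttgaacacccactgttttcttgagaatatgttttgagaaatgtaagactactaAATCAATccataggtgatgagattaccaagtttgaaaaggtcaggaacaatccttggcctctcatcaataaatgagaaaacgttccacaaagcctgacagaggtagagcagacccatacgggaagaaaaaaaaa

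The Mup3 and Mup21 stretches were identical at 93.8% of aligned bases, Mup3 and Mup4 at 89.4%, and Mup4 and Mup21 at 86.1%. The sequence ATTGATT was present on either strand in 14 of 14 Mup windows of 300 bases in the RefSeq table and in 2.86% of all 32851 windows. TGTTCT, looked for after the sequences had been seen, was present in 2 of the 14 Mup windows, those of Mup3 and Mup21, and in 19% of all windows. TTCNNNGAA, the STAT5 site, was present in 0 of 14 and in 8.3% of all windows. The marked motifs do not overlap. A match is a run of letters in the C57BL/6J reference and not a measured binding site, and binding was not measured.

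How far reads can be told apart between copies bears on every value. Transcripts of the 5 genes were 86.4 to 96.3% identical to one another (median 88.8%). Those of the other annotated Mup genes, Mup18 and Mup22 among them, were 89 to 100% identical (median 99.1%). Identity was taken from the best pair of transcripts over the bases that aligned, in some pairs only a part. The 100% came from 66 aligned bases of Mup1 and Mup7 and does not hold for their whole transcripts. Of all 100-base windows of its transcripts, 97.8% in Mup3, 100% in Mup4, 98.7% in Mup5 and 95.5% in Mup21 occurred in no other annotated gene. Mup21 shared 26 of its 578 windows with Mup3, its closest relative at 96.3% identity. In Mup20 61.2% of windows were unique, and 322 of 829 were shared with the pseudogene Mup-ps19. For the 15 other rows with a Mup symbol the median was 24.5%. How reads that match several copies were counted is not given in the sources used here, so a Mup20 value may hold or lack reads of Mup-ps19. The 15 other rows are uncertain for the same reason, except Mup6, which shared no 100-base window with another gene. In the plot of unique windows against the adult level, Mup3, Mup21, Mup5 and Mup4 sit beyond 95%, and of the other rows only Mup6 stands with them, at 100%.

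**Figure D1:**
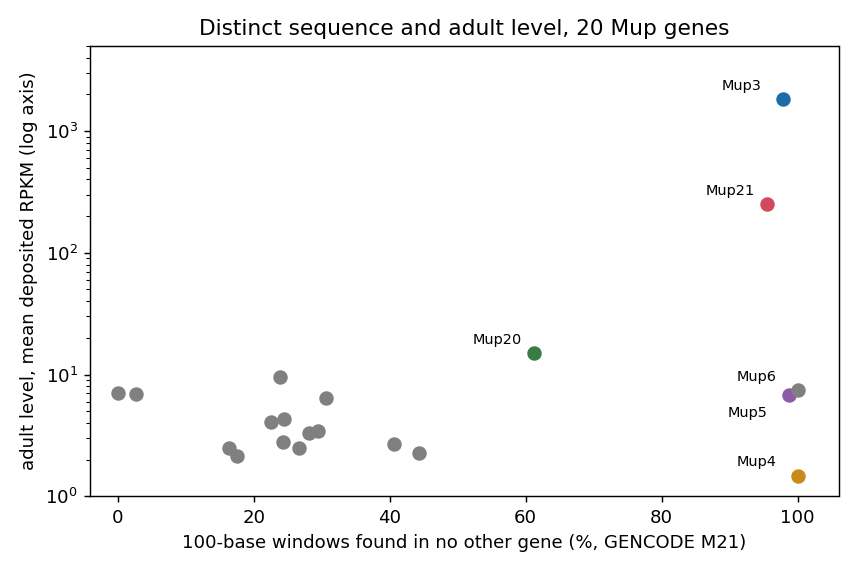
Each point is 1 of the 20 rows with a Mup symbol, with the share of its 100-base windows found in no other gene (horizontal axis, %) and its mean deposited RPKM in 2 adult libraries (vertical log axis); colours mark Mup3, Mup21, Mup20, Mup5 and Mup4, and grey marks the other 15. Mup3 at 1840 RPKM and Mup21 at 251 RPKM stand above the 15 grey points, which lie between 2.16 and 9.62 RPKM.

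Between 68154675 and 106055723 reads per library were counted on genes. The hepatocyte markers Alb, Apoa1, Apoc3, Ttr, Fgb and Ahsg were present in all 8 libraries, and 0 of these 6 rose or fell by the rule used below from P14 to P28 or from P28 to adult. Their summed level in CPM (counts scaled to a common library size) was 48600 and 51500 at E18, was highest at P14 with 267000 and 268000, and was 169000 and 185000 by P28 and 91000 and 110000 in adult. Xist, transcribed from the inactive X chromosome, had 107378 and 10229 reads at E18 and 50 and 50828 at P14, but 43 to 78 in the 4 later libraries. The Y-linked Ddx3y had 0 and 3421 reads at E18, 4966 and 513 at P14, and 3178 to 4378 later. Both P28 and both adult libraries thus carried Y-linked reads with little Xist, whereas E18 replicate 1 and P14 replicate 2 carried most of the Xist. E18 replicate 2 and P14 replicate 2 held reads of both, so the calls from P14 to P28 were also made without P14 replicate 2. Counts for gene lists with a library left out were an alternative chosen after seeing the data. Of the markers of other cells, 0 rose in either step. Those of stellate cells (3 genes), endothelium (3) and macrophages (3) were not called in either step. The endothelial Pecam1, Stab2 and Kdr still had log2 fold changes of -1.27, -1.56 and -1.27 from P14 to P28, under 3-fold. From P14 to adult 3 of 3 endothelial, 1 of 3 macrophage, 0 of 3 stellate and 1 of 6 hepatocyte markers fell, against 11.1% of all genes tested. From P14 to P28, 2 of 2 fetal hepatocyte, 2 of 5 erythroid, 1 of 4 bile duct and 1 of 6 pancreas acinar markers fell, against 5.98% of all genes tested. From P28 to adult, 1 of 2 fetal hepatocyte, 1 of 5 erythroid and 1 of 6 pancreas acinar markers fell, against 2.24%. Without P14 replicate 2 the bile duct marker was not called and 1 endothelial marker fell from P14 to P28, and without P28 replicate 1 the erythroid and pancreas markers were not called from P28 to adult. The summed pancreas markers went from 228 and 501 CPM at E18 to 4.01 to 6.34 CPM at P28 and in adult. The part of these cells in the Mup values was not tested. In whole liver, fewer cells of a type and less RNA per cell cannot be told apart.

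At E18 the 5 genes were at or near 0 reads. Mup3 had 0 reads in replicate 1 and 6 in replicate 2, and Mup21 had 0 and 1. Mup4, Mup5 and Mup20 had 0 reads in both libraries, which allows up to 3 reads, or 0.0216 and 0.0245 CPM after scaling by the trimmed mean of M-values (TMM). These bounds, like all counting intervals below, cover counting error only.

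At P14 only Mup3 stood clear of the floor of 3 reads in both libraries. It had 165 and 143 reads, or 1.61 and 1.42 in the deposited RPKM, which divides reads by transcript length and sequencing depth, so both P14 libraries lay above both E18 libraries. Mup21 had 7 and 3 reads, Mup20 6 and 1, Mup5 2 and 0, and Mup4 0 and 0. Without a test, Mup3 was 69.4-fold higher at P14 than at E18 by mean CPM (74.1-fold by summed reads, 95% counting interval 33.7 to 204). For Mup21 the 10 reads at P14 against 1 at E18 gave a ratio of 13.5 by mean CPM (14.4 by summed reads, counting interval 2.05 to 627).

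By P28 all 5 genes were read in both libraries. Mup3 had 85820 and 83315 reads, 925 and 1024 RPKM, and ranked 49 and 48 among all genes of its library by RPKM. Mup21 had 1321 and 1763 reads, 17.1 and 26.0 RPKM. Its P28 libraries, like those of Mup3, lay far above every earlier library. Mup20, the darcin gene, had 258 and 490 reads, 2.85 and 6.17 RPKM. Mup5 had 141 and 205 reads, 1.58 and 2.62 RPKM, and Mup4 had 37 and 88 reads, 0.413 and 1.12 RPKM. The 4 genes other than Mup3 were all higher in replicate 2 than in replicate 1, by 1.49-fold for Mup21, 1.63-fold for Mup5, 2.12-fold for Mup20 and 2.66-fold for Mup4 on the CPM scale, against 1.09-fold for Mup3. The 15 other Mup rows were also all higher in P28 replicate 2, by 1.52- to 2.65-fold. How many of all genes were higher in that library is not given here.

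In adult liver Mup3 had 123799 and 136124 reads, 1848 and 1835 RPKM, and ranked 30 in both libraries. Mup21 had 13157 and 16450 reads, 236 and 266 RPKM, and moved from rank 2798 and 2053 at P28 to rank 279 and 239. Both adult libraries of Mup21 were far above both P28 libraries. Mup20 had 911 and 1164 reads, 13.9 and 16.1 RPKM. Mup5 had 460 and 456 reads, 7.14 and 6.39 RPKM, and Mup4 had 79 and 125 reads, 1.22 and 1.75 RPKM. The adult libraries lay above the P28 libraries for each of these genes on the RPKM scale, but for Mup4 the nearest pair was 1.12 at P28 and 1.22 in adult.

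**Figure D2:**
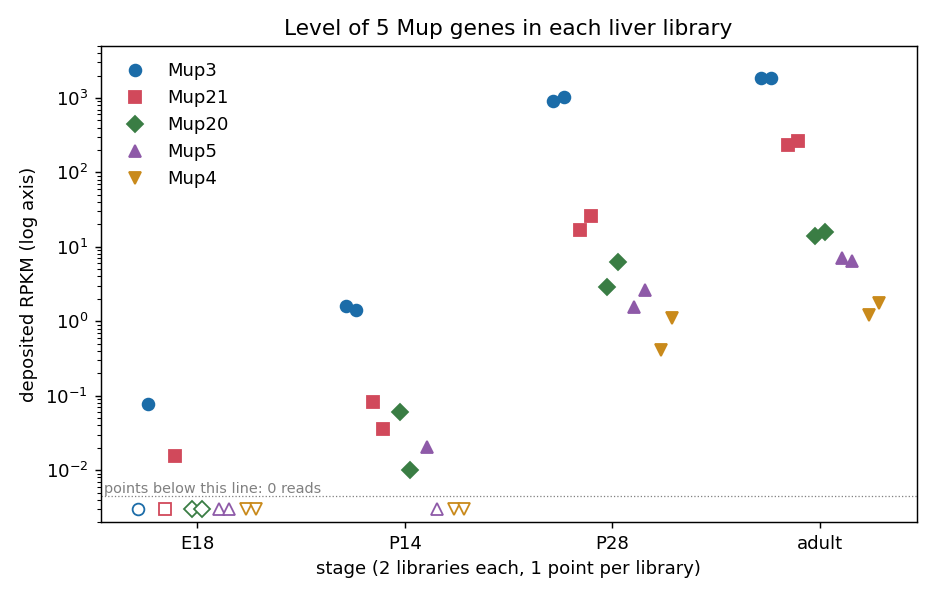
Deposited RPKM (log axis) of 5 Mup genes in each of 8 liver libraries, grouped by stage, with 1 point per library and open points below the dotted line for libraries with 0 reads. Mup3 goes from 1.61 and 1.42 at P14 to 1848 and 1835 in adult, and from P28 on the genes keep the order Mup3, Mup21, Mup20, Mup5, Mup4 in every library.

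The order per length was the same in both adult libraries and in both P28 libraries. Adult means were 1840 ± 9.77 RPKM (SD, n = 2) for Mup3, 251 ± 21.5 for Mup21, 15 ± 1.51 for Mup20, 6.77 ± 0.531 for Mup5 and 1.48 ± 0.37 for Mup4, so each neighbouring pair was apart by more than the spread. At P28 Mup20 (4.51 ± 2.35 RPKM, SD, n = 2) and Mup5 (2.1 ± 0.736) were separated by about their spread, as the lower Mup20 library had 2.85 and the higher Mup5 library 2.62 RPKM. At P14 Mup21 (0.059 ± 0.0328 RPKM) and Mup20 (0.0351 ± 0.0353) overlapped. The 15 other Mup rows had adult means between 2.16 and 9.62 RPKM, so per length Mup3, Mup21 and Mup20 were above and Mup4 below all of them. On the CPM scale, without length, Mup20 (16.6 ± 1.32 CPM, SD, n = 2) and Mup2 (16.2 ± 5.02) overlapped. The deposited RPKM of Mup2 rests on a length of 3042 bases, that of Mup20 on 886. Reads that match several copies may also be missing from, or shared among, the 15 rows.

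From P14 to P28 all 5 genes rose. A gene was said to rise or fall when edgeR's quasi-likelihood test gave a false discovery rate under 0.1 and the change was more than 3-fold, and 3.61% of the 17081 genes tested rose by this rule. All 5 genes passed the filter on low counts through their P28 and adult libraries, so a rise from an almost silent P14 was to a degree built into which genes could be tested, and the count of 5 adds no support. Mup3 rose 658-fold by mean CPM, from 1.7 ± 0.138 to 1120 ± 65.2 CPM (SD, n = 2), with a log2 fold change of 9.36 ± 0.29 (SE, adjusted p = 2.7e-07 in edgeR). Mup21 rose 374-fold, from 0.055 ± 0.0302 to 20.6 ± 5.76 CPM, with a log2 fold change of 8.5 ± 0.33 (adjusted p = 7e-07 in edgeR), and with 10 reads at P14 its counting interval ran from 200 to 769. Leaving out P14 replicate 2, the library with high Xist, gave log2 fold changes of 9.27 for Mup3 and 8.04 for Mup21, both still called. The 2 P14 libraries, one with little and one with much Xist, had 165 and 143 Mup3 reads.

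Mup20 rose 131-fold by mean CPM from 7 summed reads at P14 (counting interval 61.6 to 318), with a log2 fold change of 6.97 ± 0.58 (SE, adjusted p = 6.7e-05 in edgeR). Mup5 rose from 2 summed reads at P14 to 346 at P28, a ratio of 207 by summed reads (counting interval 56.7 to 1710), with an adjusted p of 4e-05 in edgeR. Mup4, with 0 reads in both P14 libraries, was at least 25.5-fold higher at P28 when 3 reads per library were allowed at P14 (adjusted p = 0.00095 in edgeR). The fitted fold of Mup4 rests on a prior count and is no bound. Without P14 replicate 2 the 3 genes were still called, with log2 fold changes of 6.23 for Mup20 and 6.63 for Mup5.

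From P28 to adult the means of all 5 genes were higher in adult, and 3 of them passed the rule. Mup21, Mup20 and Mup5 rose by the rule (3 of 5, against 0.767% of genes tested), and Mup3 and Mup4 did not. The adult level of Mup21 had helped to choose the family, and the 5 are related genes of 1 locus. The count of 3 therefore adds no support, and the test of Mup21 is not independent of that choice. Mup21 changed most of the 5, from 20.6 ± 5.76 to 237 ± 15.3 CPM (SD, n = 2), 11.5-fold with a log2 fold change of 3.53 ± 0.2 (SE, adjusted p = 4.3e-05 in edgeR). Mup3 had 1120 ± 65.2 CPM at P28 and 2090 ± 54.9 in adult, and its log2 fold change of 0.9 ± 0.2 (adjusted p = 0.02 in edgeR) was short of the 3-fold limit. Mup4 had 0.847 ± 0.543 and 1.62 ± 0.371 CPM, with a log2 fold change of 0.95 ± 0.46 (adjusted p = 0.24 in edgeR).

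Mup20 had 5.04 ± 2.57 CPM at P28 and 16.6 ± 1.32 in adult (SD, n = 2), with a log2 fold change of 1.72 ± 0.34 (SE, adjusted p = 0.014 in edgeR). Mup5 had 2.32 ± 0.781 and 7.39 ± 0.734 CPM, with a log2 fold change of 1.68 ± 0.28 (adjusted p = 0.008 in edgeR). Both stood just past the 3-fold limit and depended on P28 replicate 1, the P28 library with the lower Mup levels. Without it the log2 fold changes were 1.28 for Mup20 and 1.36 for Mup5, under 3-fold, and only Mup21 was still called, at 3.26. Without P28 replicate 2 Mup4 was called, at 1.81, and without adult replicate 1 Mup5 was not, at 1.57.

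Expressed as a share of the adult level, Mup21 had reached 8.69% by P28, whereas Mup20 had reached 30.4%, Mup5 31.3%, Mup4 52.3% and Mup3 53.6%. The Mup21 shares in the single P28 libraries were 6.97 and 10.4%, and no library of another Mup row lay as low. Mup4 ranged from 28.6 to 76% and Mup3 from 51.4 to 55.8%. The means of the 15 other Mup rows lay between 27.7 and 44.7%. Relative to Mup3 in the same library, Mup21 stood at 1.85 and 2.54% of its RPKM at P28 and at 12.8 and 14.5% in adult, a 6.28-fold higher ratio in adult. An exact two-sided permutation test of the log2 ratio gave p = 0.33, the smallest p that 2 against 2 libraries allow. The corresponding ratios to Mup3 rose 1.89-fold for Mup20 and 1.75-fold for Mup5 (exact permutation p = 0.33 each), and 1.13-fold for Mup4 (exact permutation p = 1).

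**Figure D3:**
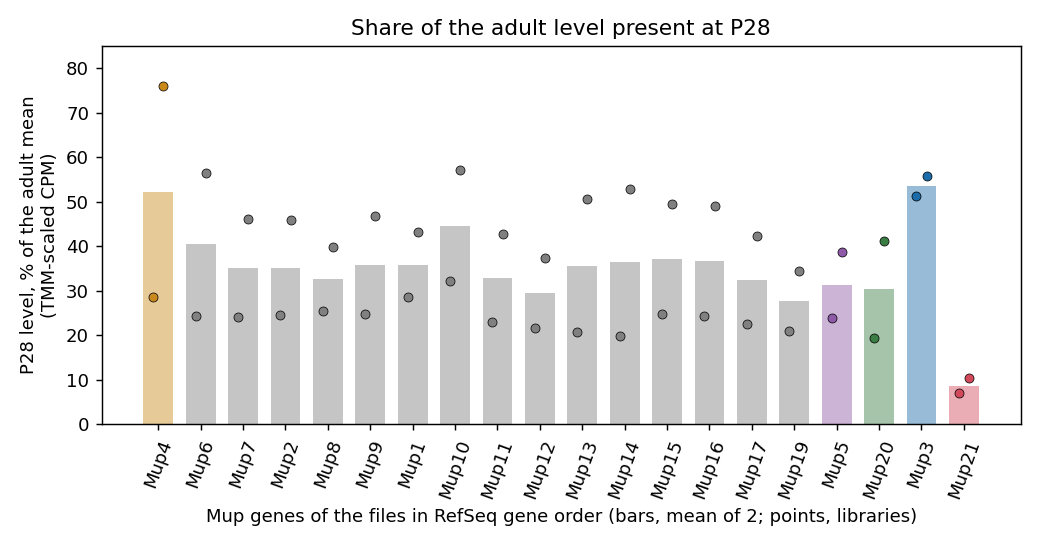
Level at P28 as a percent of the adult mean (TMM-scaled CPM) for the 20 rows with a Mup symbol, in RefSeq gene order along the cluster; bars are means of 2 P28 libraries, points the libraries, colours mark Mup4, Mup5, Mup20, Mup3 and Mup21, and grey the other 15. Mup21, the last gene, stands at 8.69%, beside Mup3 at 53.6%, and the points of most other rows lie far apart, with replicate 2 higher.

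From P14 to adult all 5 genes rose again (4.35% of genes tested rose), which, with the same members, filter and P14 libraries, adds no support. The adult levels of Mup3 and Mup21 had helped to choose the family, so their tests are not independent of that choice. The log2 fold change was 10.26 ± 0.3 (SE, adjusted p = 1.1e-07 in edgeR) for Mup3 and 12.03 ± 0.34 (adjusted p = 8e-08 in edgeR) for Mup21. By mean CPM these were 1230-fold and 4310-fold, and without P14 replicate 2 the log2 fold changes were 10.17 and 11.57. Set beside E18 and with no test, adult Mup3 was 85200-fold higher by mean CPM (summed reads 90800-fold, counting interval 41700 to 247000) and adult Mup21 58000-fold (62100-fold, counting interval 11100 to 2450000 from a single E18 read). Mup4, Mup5 and Mup20 were at least 70.2-fold, 320-fold and 719-fold higher in adult than at E18.

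The 5 genes together took 0.0927 and 0.103% of reads on genes at P28 and 0.203 and 0.206% in adult. Mup3 alone made up 96 and 93.7% of all reads on rows with a Mup symbol at P28, and 86.7 and 84.2% in adult. Mup21 and the other rows took a larger part of these counted reads in adult. Reads that match several copies may be missing from the 15 other rows, and rows under older names are left out. The shares therefore describe counted reads and not all Mup RNA of the liver. All 15 other Mup rows, which together had 6 and 4 reads at P14, rose from P14 to P28, against 3.61% of all genes tested. Their median log2 fold change was 9.58, against -0.05 over all genes tested. These rows too passed the filter on low counts through P28 and adult and are mostly near-identical copies, so the count of 15 adds no support. From P28 to adult 5 of 15 rose, against 0.767% of all genes tested (median 1.49, against 0). The 5 were Mup8, Mup11, Mup12, Mup17 and Mup19, with log2 fold changes of 1.61 to 1.86, and the other 10 lay at 1.17 to 1.51. This count rested on single libraries, as 0 rose without P28 replicate 1, 15 without P28 replicate 2, 11 without adult replicate 1 and 1 without adult replicate 2. Mup6, the row of the 15 whose windows were all unique, had 0 reads at P14 and was at least 61.2-fold higher at P28. Its log2 fold change from P28 to adult was 1.31, under 3-fold. For the 5 divergent genes the medians were 8.5 and 1.68. Another 2 rows hold Mup genes under older names. Gm2083, an older name of Mup13, had 0 reads in each of the E18 and P14 libraries, 79 and 129 at P28 and 183 and 354 in adult, and LOC100048884, which carries the gene ID of Mup18, had 69 and 126 at P28 and 204 and 306 in adult.

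None of the 3 flanking genes that could be tested was called in either step. Snx30 had log2 fold changes of 0.25 from P14 to P28 and -0.25 from P28 to adult (adjusted p = 0.22 and 0.33 in edgeR). Zfp37, on the other side, had a log2 fold change of -1.29 from P14 to P28 (adjusted p = 0.0015 in edgeR, under 3-fold) and 0.34 afterwards. Slc46a2, next to the cluster, had 0 and 0 reads at P14, 3 and 4 by P28 and 8 and 12 in adult, too few to be tested, and Slc31a2 had log2 fold changes of 0.02 and -0.12.

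Of 11 genes with a known male bias in liver, 10 rose from P14 to P28 (3.61% of all genes tested rose) and 3 from P28 to adult (0.767%), with median log2 fold changes of 4.06 and 1.12. Selenbp2, a selenium-binding protein and named for being the exception, was not called in the first step, with a log2 fold change of 0.15 (adjusted p = 0.73 in edgeR). Without P14 replicate 2 the count of the first step was again 10, and without P28 replicate 2 that of the second step was 5. Slco1a1, an organic anion transporter, had 6349 and 6689 reads at P14, 75715 and 68588 by P28 and 63491 and 82078 in adult, so it was near its adult level by P28, with log2 fold changes of 3.72 and 0.29. Cyp7b1, an oxysterol hydroxylase, had log2 fold changes of 5.93 and 2.36, and C6, a complement component, 4.06 and 2.03, each called in both steps. Elovl3, a fatty acid elongase, had 7.46 and -0.53 and was called only in the first. The 2 P14 libraries, which differed in Xist, had 340 and 353 reads of Cyp7b1. At P28 Cyp7b1 stood at 11.8 and 27.2% and C6 at 17.9 and 31% of the adult mean, between the shares of Mup21 and Mup3.

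Genes with a known female bias mostly moved the other way. Of 15 tested, 1 rose and 7 fell from P14 to P28 (5.98% of all genes tested fell), and 0 rose and 10 fell from P28 to adult (2.24% of all genes tested fell), with median log2 fold changes of -1.02 and -2.23. Without P14 replicate 2, 7 fell in the first step, and without adult replicate 2, 6 fell in the second. Cyp2b9, a cytochrome P450, fell by 2.79 and then by 4.95 on the log2 scale. A1bg rose by 4.03 to P28 and fell by 7.41 afterwards on the log2 scale, and Prlr, the prolactin receptor, had 0.58 and -1.28 and was not called. The 2 P28 libraries differed in some of these genes. A1bg had 15621 reads in replicate 1 and 3171 in replicate 2, and Cyp2b9 had 2078 and 337. Over the list, 11 of 15 genes were higher in P28 replicate 1 by CPM, and the ratio of replicate 2 to replicate 1 ran from 0.118 to 1.5 with a median of 0.747. Of the male-biased genes, 11 of 11 were higher in replicate 2, by 1.01- to 2.3-fold (median 1.69). Other lists leaned as well. Of the growth hormone pathway genes 9 of 11 were higher in replicate 1 (median 0.884), and of the other lipocalins 9 of 12 in replicate 2 (median 1.2). The share over all genes is not given here. The part of the difference between the 2 P28 libraries in the Mup values was not tested.

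**Figure D4:**
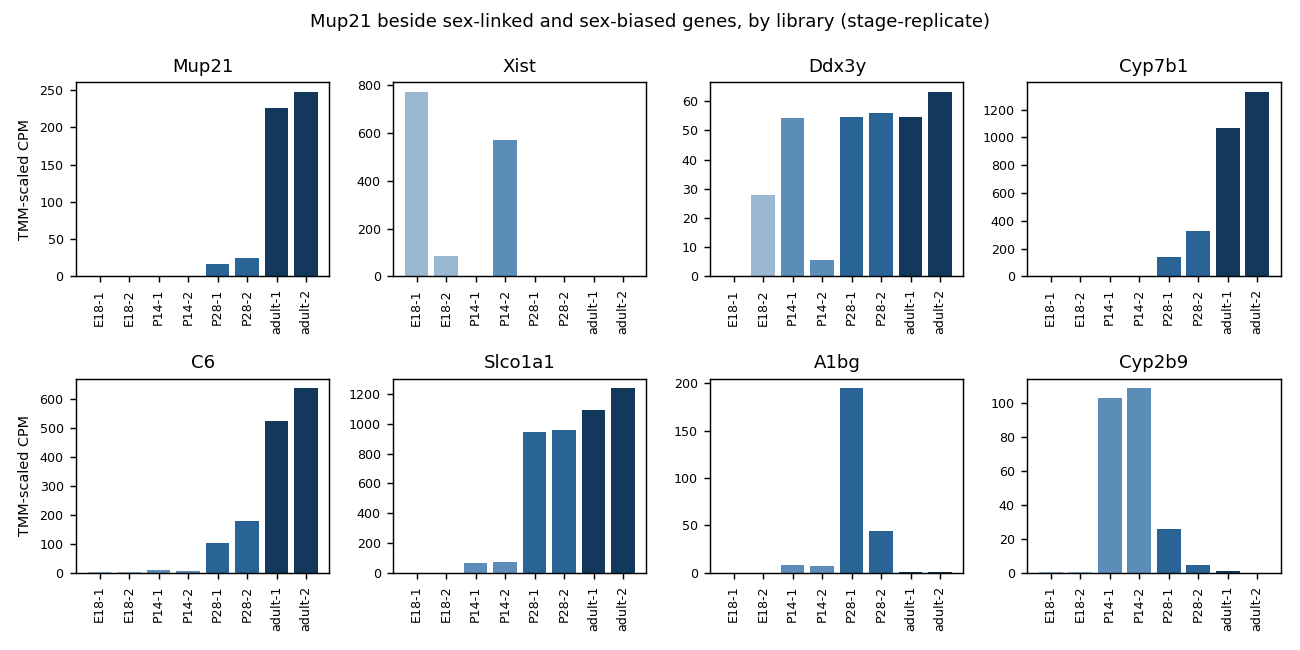
TMM-scaled CPM in each of 8 libraries (bars, 1 per library, stage and replicate on the horizontal axis, darker with age) for Mup21, the X-linked Xist, the Y-linked Ddx3y, the male-biased Cyp7b1, C6 and Slco1a1, and the female-biased A1bg and Cyp2b9. Mup21, Cyp7b1 and C6 are highest in both adult libraries, and A1bg and Cyp2b9 are higher in P28 replicate 1 than in replicate 2.

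Receptors of thyroid hormone and glucocorticoids, both named for the control of Mup genes, were not called. The thyroid hormone receptor genes Thrb (0.78 and 0.26) and Thra (-0.48 and -0.12) and the glucocorticoid receptor gene Nr3c1 (0.32 and 0.07) had log2 fold changes under 3-fold in both steps. Rsl1, a zinc finger repressor of sex-limited genes, had 4 to 10 reads in the 6 postnatal libraries and was not tested.

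Of 11 genes of the growth hormone pathway tested, 2 rose and 1 fell from P14 to P28 (3.61% of all genes tested rose and 5.98% fell), with a median log2 fold change of 0.42, and 0 rose or fell by the edgeR rule from P28 to adult (median 0.17). Bcl6 and Socs3 rose and Socs2 fell. Socs3 and Socs2, feedback inhibitors of cytokine receptors that were named after their values were seen, had log2 fold changes of 1.87 and -1.82 (adjusted p = 0.025 and 0.026 in edgeR). Both differed between the P28 libraries, with 1167 and 2979 reads of Socs3 and 2276 and 455 of Socs2. Without P14 replicate 2 the counts of the first step were again 2 and 1, without P14 replicate 1 only 1 rose, and without P28 replicate 2 none fell. Without P28 replicate 1, 3 rose from P28 to adult. Ghr, the growth hormone receptor gene, had 44171 and 42229 reads at P14 and log2 fold changes of 0.65 and 0.56. Igf1, a secreted target of the pathway, had 1.15 and -0.49, Stat5b, its transducer in the liver, -0.21 and -0.54, and Igfals, the partner of circulating IGF1, 0.42 and 0. Bcl6, a repressor that opposes STAT5 and that was singled out after its values were seen, had 1001 and 894 reads at P14 and 2560 and 4856 at P28, a log2 fold change of 2.25 ± 0.3 (SE, adjusted p = 0.00043 in edgeR). Onecut1, singled out for its motif, had 3294 and 332 reads in the 2 P28 libraries. Its log2 fold change of 1.43 ± 0.79 from P14 to P28 was thus within the spread between replicates (adjusted p = 0.17 in edgeR). From P14, with 1010 and 539 reads, to adult, with 1711 and 3999, Onecut1 was called. That log2 fold change was 2.39 ± 0.81 (adjusted p = 0.033 in edgeR).

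Of 11 other lipocalin genes tested, 4 rose and 1 fell from P14 to P28 (median log2 fold change 0.7, against 3.61% of all genes tested that rose and 5.98% that fell), and 2 rose from P28 to adult (median 0.22, against 0.767%). Without P14 replicate 2 the counts of the first step were again 4 and 1, and without P28 replicate 1 only 1 rose in the second. The acid glycoprotein gene Orm1 had 226 and 289 reads at P14, 32170 and 37182 by P28 and 34977 and 36635 in adult, so it was close to its adult level by P28, with log2 fold changes of 7.34 and 0.32. The retinol carrier Rbp4 (-0.3 and 0.39), Ambp (-0.18 and -0.02), the precursor of an inter-alpha-trypsin inhibitor subunit, and Apom (-0.61 and -0.21), an apolipoprotein of high-density particles, were already abundant at P14 and were not called. Lcn13, singled out after its values were seen, had 6 and 1 reads at P14, 5 and 11 by P28 and 115 and 143 in adult, a log2 fold change of 4.26 from P28 to adult (adjusted p = 7e-04 in edgeR).

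Across the 8 libraries the log2 CPM of the 5 genes went together, with Pearson's r of 0.944 to 0.997 over the 10 pairs. All these values were low at E18 and P14 and high at P28 and in adult, and r describes the shape of the profile and not its size. Outside the rows with a Mup symbol, the profile most like that of Mup3 was Rnf146 (r = 0.9987), which only went from 5539 reads in E18 replicate 1 to 8670 in P28 replicate 1. Srd5a1, the steroid 5-alpha-reductase that makes dihydrotestosterone, was also among the 5 closest to Mup3 (r = 0.9982), with 587 and 596 reads at E18, then 1852 and 1678 at P14, then 16725 and 16717 by P28, and 19769 and 17223 in adult. The others were Echdc1, Thnsl2 and a row whose symbol had been turned into a date.

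For Mup21 the closest were Slc15a5, Gpr108, Trhde, Recql5 and Pdha1. Slc15a5 (r = 0.9967), a member of the peptide transporter family, had 0 reads in each E18 library, then 1 and 2 at P14, 91 and 109 in the P28 libraries and 259 and 369 in adult, and Trhde (r = 0.9944), an enzyme that degrades thyrotropin-releasing hormone, had 1 and 1 at P14, 65 and 98 by P28 and 320 and 526 in adult. Both were thus near silent up to P14 and highest in adult, like Mup21. Mup4 was closest to the Mup rows under older names, Gm2083 and LOC100048884, then to Ubl7, Gpt2 and Phf17. Mup5 was closest to Recql5, LOC100048884, Hopx, Tbc1d15 and 1500015L24Rik, and Mup20 to Fam188a, Hopx, Daglb, 6330409N04Rik and Pno1.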

How the data were processed

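Stage and replicate number of the 8 samples were taken from the sample labels. The authors sequenced 100-base read pairs, counted reads per gene and deposited, for each of 22059 gene symbols, raw counts and the RPKM they computed from them, scaled by transcript length and by mapped reads. The submitters' processing notes name the build mm9, and the methods state alignment to the genome and transcriptome. The study also tabulates uniquely mapped reads per library, but these totals are far below the reads counted on genes. Whether the gene counts hold only uniquely mapped reads, and the annotation, are not given in the sources used here. The labels name Trizol and the methods RNeasy for RNA isolation.

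Counts were filtered by filterByExpr, scaled by TMM and tested in edgeR 4.0.16 (R 4.3.3) by the quasi-likelihood test with 1 coefficient per stage over all 8 libraries and Benjamini-Hochberg adjustment over 17081 genes. A call needed an adjusted p under 0.1 and more than 3-fold change. SE is the log2 fold change divided by the root of F. Ratios use mean TMM-scaled CPM, with a floor of 3 reads per library and exact binomial 95% intervals on summed reads. Windows and identities come from GENCODE M21 transcripts, and promoters from RefSeq.

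The members and gene lists were chosen with earlier results of these data known. The named genes were the 5 members, the other Mup rows, the 5 most correlated genes, all genes of lists of up to 5, the 4 most abundant of longer lists and the flanking genes. Alternatives were other filters, scalings, thresholds, DESeq2 1.42.0, limma 3.58.1 on log2(RPKM + 0.1), a replicate block and each library left out. Genes on 1 locus and near-identical copies are not independent. Some genes of the lists are not reported here.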

Additional observations from a re-analysis of the deposited data

How the results depend on the processing

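With 2 libraries per stage and near-zero reads before P28, the fold from P14 is limited by counting. All 5 Mup genes rose from P14 to P28 and to adult in edgeR and under every alternative that tested them, including each library left out, which the choice of members and the filter fix to a degree and which is no sign of stability. From P28 to adult 3 rose, also with no filter, other scalings, DESeq2, limma, a fit of the 2 stages alone, a false discovery rate of 0.05 and a 2-fold limit, but 1 to 4 when a library was left out, with 1 without P28 replicate 1. None of the 5 could be tested with at least 10 reads in every library.

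Labels number the replicates, but deviations of same-numbered samples correlated at -0.222 to 0.087 over 6 pairs of stages. No pairing by number was thus seen, though 2 libraries per stage cannot exclude one. With the replicate block 5, 3 and 5 of the 5 genes were called, as without it, and 606, 133 and 744 of all genes rose from P14 to P28, P28 to adult and P14 to adult, against 616, 131 and 743. Leaving out a library gave 566 to 658, 94 to 140 and 710 to 807. With at least 10 reads in every library, where fewer genes were tested, 343, 61 and 451 rose. With limma 400 rose from P14 to P28 and 78 from P28 to adult, and the cause was not tested. With a 2-fold limit 1207, 242 and 1486 rose.

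On the log2(RPKM + 0.1) scale, whose pseudocount exceeds the P14 levels of all but Mup3, the log2 difference from P14 to P28 was 2.98 for Mup4, 4.28 for Mup5, 5.02 for Mup20 and 7.07 for Mup21, and 9.23 for Mup3. Of the 5 closest genes per member, the order changed with the 6 postnatal libraries alone: Rnf146 ranked 4 for Mup3 and Slc15a5 107 for Mup21. By Spearman's rho 173 genes tied at 1 with Mup3 and 98 with Mup21.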
